A study of Arabidopsis thaliana with 87 samples.

Results

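The 22 nt small RNAs of the RUBY transgene are the reads of exactly that length on its plus or minus strand. In each of 87 libraries the files count transgene reads by strand and by each of 11 lengths between 18 and 28 nt, which makes 22 rows, and 2 of them are the 22 nt rows. No library lacked either row, and together they held 2153261 reads, from 40 to 213156 in a library. Levels are given as RPM, reads per 1000000 mapped reads. RUBY encodes the enzymes of betalain synthesis, and since betalain is a red pigment, the colour of a leaf shows where the transgene is expressed. The sequences of the reads were not analysed here, and the strand that matches the RUBY mRNA is not stated in the files.

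All plants were Arabidopsis thaliana, and leaves were taken at 4 weeks. In 69 libraries RUBY stood behind 35S, a promoter of cauliflower mosaic virus that is active in most plant tissues, and in 18 behind ZmUBQ, named after a maize ubiquitin promoter. The 35S libraries of Col-0, the wild-type strain, came from 11 transgenic events, each named by an MK number. Leaves that were green throughout (fully green) gave 9 libraries and leaves that were red throughout (fully red) gave 13. From variegated leaves came 13 libraries of green parts and 13 of red parts. Plants labelled always red gave 11 libraries, and those labelled always green gave 2, from 1 event. Another 8 always red 35S libraries came from 2 events in dcl1234, a genotype mutated in the DICER-LIKE genes. The ZmUBQ libraries were all in Col-0, from 3 events: 7 were fully green, 7 fully red and 4 always red. Labels number the libraries within an event without saying whether they came from separate plants, so p-values measure the spread between libraries, many of which share an event.

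In Arabidopsis the length of a small interfering RNA reflects the DICER-LIKE enzyme that cut it: DCL4 makes 21 nt, DCL2 makes 22 nt and DCL3 makes 24 nt products. These enzymes cut double-stranded RNA, and RDR6, an RNA-dependent RNA polymerase, can make the second strand on a transgene transcript, so that products come from both strands. The 22 nt class is known for a particular role: loaded into AGO1, such RNAs can recruit RDR6 to their target and start a further round of 21 nt products. Pieces of degraded mRNA, in contrast, come from the mRNA strand and spread over many lengths. The reads of 25 to 28 nt are therefore given beside the 22 nt reads, as their mean per length on the same strand.

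Libraries had between 0.905 and 31.4 M mapped reads, where M stands for 1000000, and 6 had fewer than 8 M. These 6 were 1 of fully green leaves, 1 of green parts, 3 of red parts and 1 of fully red leaves. The shallowest, the fully red library MK044 number 3, held 35 plus and 5 minus 22 nt reads. Some of these libraries stood apart in shape as well as in depth. In the 4 leaf-part libraries under 8 M the ratio of 22 to 21 nt reads was 13.5% ± 1.42 (SD, n = 4) on the plus and 13.7% ± 0.870 on the minus strand. The other 22 leaf-part libraries had 18.5% ± 2.43 and 11.4% ± 0.587. Results that change without the libraries under 8 M are given both ways.

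In fully green 35S leaves 22 nt RNAs were abundant on both strands, and in fully red leaves of the same construct they were scarce. The plus-strand level of fully green leaves ran from 990 to 5579 RPM with a median of 3502 RPM, and the minus-strand level from 1041 to 4840 RPM with a median of 2972 RPM. In fully red leaves the plus strand ran from 35.4 to 144 RPM with a median of 60.4 RPM, and the minus strand from 5.53 to 158 RPM with a median of 22.3 RPM. All 9 green libraries lay above all 13 red ones on either strand. The plus-strand level was 40.7-fold higher in fully green leaves, with a 95% interval of 25.7 to 64.3 (two-sided exact permutation test on log2(RPM + 1), Benjamini-Hochberg adjusted p = 3.44e-05). On the minus strand the difference was 79.2-fold with an interval of 38.9 to 161 (exact permutation test, adjusted p = 3.44e-05). Without the fully red library MK044 number 3 it was 69.0-fold. The difference was not particular to 22 nt: of the 22 length and strand rows, 100% passed in this comparison.

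Every fold in levels is on the log2(RPM + 1) scale, and p-values of levels were adjusted over 308 tests, 22 rows in 14 comparisons. Of these tests 152 were called higher in the first-named group and 57 lower. When edgeR scaled the libraries by TMM factors computed on the 22 transgene rows themselves, the split was 79 higher to 77 lower. That scaling removes by construction whatever all rows share, so its values describe the 22 nt row relative to the other rows.

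Green parts of variegated 35S leaves held more 22 nt RNA than red parts, though some red parts held as much as green ones. Green parts ran from 312 to 4320 RPM on the plus strand, with a median of 1896 RPM, and from 337 to 4280 RPM on the minus strand, with a median of 2149 RPM. Red parts ran from 71.3 to 4049 RPM on the plus strand, with a median of 180 RPM, and from 66.7 to 4462 RPM on the minus strand, with a median of 180 RPM. The groups overlapped: 9 of 13 red-part libraries on the plus strand and 8 on the minus strand lay below every green part. The highest red-part library, MK016 number 5 with 7.98 M mapped reads, reached the top of the green range. Between parts of the same event and number, the green part was higher on each strand in 12 of 13 cases. The plus strand was 5.21-fold higher in green parts (permutation test with 100000 resamples, adjusted p = 0.00277), and the minus strand 5.61-fold (adjusted p = 0.00268), beside 86.4% of the 22 rows called. Without MK016 number 5 these folds were 6.53 and 7.08. Relative to the other rows under TMM scaling the plus-strand difference was -0.0044 on the log2 scale, with the opposite sign (edgeR, adjusted p = 0.987).

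Red parts in turn held more than fully red leaves. The plus strand was 4.08-fold higher in red parts, with an interval of 1.91 to 8.77 (permutation test, adjusted p = 0.000829), and the minus strand 8.00-fold, with an interval of 3.18 to 20.1 (adjusted p = 0.000399). In this comparison 68.2% of rows were called. On the plus strand 7 of 13 red-part libraries lay above every fully red library. Of the high red-part libraries, MK016 number 5 and MK025 number 1 had under 8 M mapped reads. Without the former the folds were 3.25 and 6.34, and without the latter 3.55 and 6.88, each still a call. At 8 M or more, the plus strand averaged 274 RPM in red parts and 74.2 RPM in fully red leaves. Between fully green leaves and green parts no difference passed when libraries were treated as independent. The plus strand was 1.92-fold higher in fully green leaves, with an interval of 0.978 to 3.77 (exact permutation test, adjusted p = 0.0784), and the minus strand 1.77-fold, with an interval of 0.925 to 3.39 (exact permutation test, adjusted p = 0.105), with 4.55% of rows called. In these groups libraries of the same event and number deviated together in 9 of 9 pairs. With those pairs as a block the plus strand was 1.64-fold higher in fully green leaves (exact sign-flip permutation test, adjusted p = 0.0153) and the minus strand 1.51-fold higher (exact sign-flip permutation test, adjusted p = 0.0286). The unpaired plus-strand difference also passed without the green-part library MK040 number 1 (log2 difference 1.07, exact permutation test, adjusted p = 0.0410) or the fully green library MK044 number 3 (log2 difference 1.12, exact permutation test, adjusted p = 0.0390).

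Always red 35S plants had the lowest 22 nt levels of the 35S Col-0 groups, though not an absence of 22 nt reads. Their plus strand ran from 12.1 to 56.9 RPM with a median of 34.1 RPM, and their minus strand from 4.08 to 17.8 RPM with a median of 13.1 RPM. Fully red leaves, from events that also gave green parts, were 1.94-fold higher on the plus strand, with an interval of 1.35 to 2.79 (permutation test, adjusted p = 0.00164). On the minus strand they were 2.49-fold higher, with an interval of 1.34 to 4.60 (adjusted p = 0.0107), and 81.8% of rows were called. The ranges overlapped: on the plus strand 7 of 13 fully red libraries, and on the minus strand 9, lay above all always red ones. With TMM scaling the plus-strand value changed sign, to -0.14 (edgeR, adjusted p = 0.213), and the minus-strand call was lost (0.37, edgeR, adjusted p = 0.109). With 1 mean per event the minus-strand call was also lost (log2 difference 1.20, exact permutation test, adjusted p = 0.129).

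The levels of always green plants stood at the other end. The 2 always green libraries, both of event MK017, held 5908 and 4155 RPM on the plus strand and 5260 and 3729 RPM on the minus strand. Both lay above all 11 always red libraries, by 146-fold on the plus and 320-fold on the minus strand (exact permutation tests, adjusted p = 0.0204 for each), with 100% of rows called. With either always green library left out the adjusted p was 0.110 on each strand, since 1 library against 11 cannot pass. Compared with fully green leaves they were 1.86-fold higher on the plus strand, with an interval of 0.619 to 4.74 (exact permutation test, adjusted p = 0.193), and 1.63-fold higher on the minus strand, with an interval of 0.591 to 3.67 (exact permutation test, adjusted p = 0.271). In that comparison 0% of rows were called, with 2 rows under an unadjusted p of 0.05 and 5 called by edgeR. Green parts exceeded always red plants by 41.2-fold on the plus and 112-fold on the minus strand (permutation tests, adjusted p = 8.11e-05 for each), with 86.4% of rows called. With TMM scaling the plus-strand values of these contrasts to always red plants changed sign, to -0.23 for always green plants (edgeR, adjusted p = 0.244) and -0.20 for green parts (edgeR, adjusted p = 0.160).

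Counted whole, the 22 nt reads were balanced between strands in green tissue and not in red leaves. The minus strand took 50.5% ± 3.59 (SD, n = 9) of 22 nt reads in fully green leaves, 52.6% ± 2.47 (n = 13) in green parts and 50.7% ± 3.29 (n = 13) in red parts. In always green plants it took 47.1% and 47.3%. Fully red leaves had 34.9% ± 11.6 (n = 13), ranging from 12.5% to 52.3% with a median of 32.8%. Always red plants had 28.1% ± 3.52 (n = 11), ranging from 21.6% to 32.7%. Of the 13 fully red libraries 11 lay below the lowest fully green or green-part library, which stood at 45.9%, and so did all 11 always red libraries, against 1 of 13 red parts. The precision of a single library's share followed its reads. In the always red library MK016 number 1, with 707 plus and 275 minus reads, the 95% Wilson interval was 25.3% to 30.9%, and in the fully red library MK044 number 3, with 40 reads in all, it was 5.46% to 26.1%. Such intervals cover counting error only. The share counts all 22 nt reads, also where plus-strand reads of 25 to 28 nt were frequent. After subtraction of the 25 to 28 nt mean of the strand, the strands lay closer in red leaves. Fully red leaves then had medians of 26.2 RPM on the plus and 21.9 RPM on the minus strand, against 60.4 and 22.3 RPM before. Always red plants had 16.8 and 12.9 RPM, against 34.1 and 13.1 RPM. The share of these remainders was not tested.

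Fully green leaves exceeded fully red leaves by 15.6 percentage points, with an interval of 7.22 to 24.04 (exact permutation test, adjusted p = 0.00250, adjusted over 154 tests of 11 lengths in 14 comparisons), and 90.9% of the lengths were called. Red parts exceeded fully red leaves by 15.8 points, with an interval of 8.97 to 22.7 (permutation test, adjusted p = 0.000154), with 100% of lengths called. Green parts exceeded always red plants by 24.4 points (permutation test, adjusted p = 8.56e-05, 100% called), and always green plants exceeded them by 19.1 points (exact permutation test, adjusted p = 0.0247, 90.9% called). The last passed no longer with either always green library left out (adjusted p = 0.134, exact permutation tests). Green and red parts of variegated leaves differed by 1.86 points, with an interval of -0.491 to 4.22 (permutation test, adjusted p = 0.171), beside 81.8% of lengths called. Without the 4 leaf-part libraries under 8 M the difference was 2.93 points and passed (permutation test, adjusted p = 0.0399).

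Fully red and always red plants differed by 6.76 points, with an interval of -0.826 to 14.3 (permutation test, adjusted p = 0.123, 9.09% called). Without the fully red library MK044 number 3, whose 12.5% rests on 40 reads, the difference was 8.63 points (permutation test, adjusted p = 0.0250). Always green and fully green leaves differed by -3.33 points, with an interval of -10.2 to 2.94 (exact permutation test, adjusted p = 0.372, 9.09% called). Fully green leaves and green parts differed by -2.04 points, with an interval of -4.72 to 0.661 (exact permutation test, adjusted p = 0.187). There 0% of lengths were called, with 0 under an unadjusted p of 0.05. Within pairs of the same event and number, fully green leaves had the lower minus share in 8 of 9 pairs, by 2.02 points on average, which passed (exact sign-flip permutation test, adjusted p = 0.0283).

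The minus strand took a larger share of 21 nt than of 22 nt reads in 86 of 87 libraries. The exception was the red-part library MK044 number 3, with 6.20 M mapped reads. In fully green leaves the 21 nt share was 60.2% and in always red plants 53.7%, so the gap between lengths was 9.65 percentage points ± 1.46 (SD, n = 9) in the former and 25.6 points ± 2.44 (n = 11) in the latter. The minus strand held the majority of the 21 nt reads in 72 of 87 libraries but of the 22 nt reads in 26 of 87.

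The ratio of 22 to 21 nt reads on the minus strand spanned a narrow range in most Col-0 35S libraries. It was 11.6% ± 0.525 (SD, n = 9) in fully green leaves, 11.4% ± 0.603 (n = 13) in green parts, 12.1% ± 1.28 (n = 13) in red parts and 11.8% ± 0.951 (n = 11) in always red plants. Always green plants had 12.1% and 12.0%. Fully red leaves had a median of 11.9%, from 11.2% to 33.3%, with a mean of 13.7% ± 5.99 (n = 13). The highest value belonged to MK044 number 3 and rests on 5 reads of 22 nt. Over the 55 Col-0 35S libraries with 8 M or more the minus ratio was 11.7% ± 0.831, from 10.2% to 15.5%, while the minus-strand 22 nt level varied from 4.08 to 5260 RPM. Fully green and green-part libraries spanned 10.4% to 12.6%, and 11 of 13 fully red, 9 of 11 always red and 9 of 13 red-part libraries fell inside that span.

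On the plus strand the same ratio rose from green to red leaves. It was 17.2% ± 0.873 (SD, n = 9) in fully green leaves, 16.6% ± 1.28 (n = 13) in green parts and 15.5% and 15.8% in always green plants. Red parts had 18.9% ± 3.69 (n = 13), fully red leaves 32.3% ± 12.4 (n = 13, from 19.0% to 56.5%) and always red plants 35.2% ± 3.33 (n = 11, from 30.9% to 39.97%). All 13 fully red and all 11 always red libraries lay above the highest fully green or green-part library, at 18.4%.

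The plus ratio of fully green leaves was 0.567 times that of fully red leaves, with an interval of 0.437 to 0.736 (exact permutation test, adjusted p = 0.00128, adjusted over 280 tests of 20 ratios in 14 comparisons). Of the 20 ratios to 21 nt, 65% were called. The minus ratio of fully green leaves was 0.883 times that of fully red leaves, with an interval of 0.722 to 1.05 (exact permutation test, adjusted p = 0.331), and 0.959 times without MK044 number 3. Red parts had 0.610 times the plus ratio of fully red leaves (permutation test, adjusted p = 0.00116, 65% called) and 0.916 times the minus ratio (adjusted p = 0.582). Green parts had 0.473 times the plus ratio of always red plants, with an interval of 0.438 to 0.509 (permutation test, adjusted p = 9.50e-05, 55% called), and 0.965 times the minus ratio, with an interval of 0.911 to 1.02 (adjusted p = 0.320). Always green plants had 0.447 times their plus ratio (exact permutation test, adjusted p = 0.0312, 50% called), a call lost with either library left out (adjusted p = 0.162 and 0.164, exact permutation tests). The minus ratio of always green plants was 1.02 times theirs, with an interval of 0.897 to 1.17 (exact permutation test, adjusted p = 0.802).

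Relative to the 22 nt reads, plus-strand reads of 25 to 28 nt rose along with this ratio, though their own level was lower in red tissue. Per length they averaged 80.0 RPM in fully green leaves, 21.5 RPM in red parts, 24.5 RPM in fully red leaves and 17.9 RPM in always red plants. The 25 to 28 nt mean amounted to 2.499% of the plus-strand 22 nt level in fully green leaves, 11.6% in red parts, 41.2% in fully red leaves and 49.9% in always red plants. On the minus strand the same figure was 1.68% in fully green leaves and 2.01% in always red plants. When the 25 to 28 nt mean of the strand was subtracted from both lengths, the plus ratio was 16.8% ± 0.931 (SD, n = 9) in fully green leaves, 20.5% ± 4.53 (n = 13) in fully red leaves and 21.1% ± 2.74 (n = 11) in always red plants. Fully green leaves then had 0.839 times the plus ratio of fully red leaves in place of 0.567 times (exact permutation test, adjusted p = 0.0444). Green parts had 0.778 times that of always red plants in place of 0.473 times (permutation test, adjusted p = 0.000905), and always green plants 0.724 times, no longer a call (exact permutation test, adjusted p = 0.108). With all other reads of the strand as the denominator in place of 21 nt reads, the plus-strand log2 difference changed sign, to 0.24 for fully green against fully red leaves (exact permutation test, adjusted p = 0.000653). It was 0.11 for red parts against fully red leaves (permutation test, adjusted p = 0.151), 0.13 for green parts against always red plants (permutation test, adjusted p = 0.0456) and 0.01 for always green against always red plants (exact permutation test, adjusted p = 0.956).

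The remaining 35S contrasts of the ratio did not pass. Green parts had 0.896 times the plus ratio of red parts, with an interval of 0.789 to 1.02 (permutation test, adjusted p = 0.170), and 0.946 times the minus ratio, with an interval of 0.885 to 1.01 (adjusted p = 0.179), with 30% of ratios called. The libraries under 8 M decided the plus ratio: without them the log2 difference was -0.27 in place of -0.16 and passed (permutation test, adjusted p = 0.000400), and it was -0.21 without the red-part library MK044 number 3 alone (permutation test, adjusted p = 0.0257). Fully red leaves had 0.864 times the plus ratio of always red plants, with an interval of 0.680 to 1.10 (permutation test, adjusted p = 0.330), and 1.11 times the minus ratio, with an interval of 0.955 to 1.34 (adjusted p = 0.452). In that comparison 0% of ratios were called, with 1 under an unadjusted p of 0.05.

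Between fully green leaves and green parts the plus ratio differed 1.04-fold (exact permutation test, adjusted p = 0.398) and the minus ratio 1.02-fold (exact permutation test, adjusted p = 0.542), with 5% of ratios called. In pairs of the same event and number the minus ratio was 0.05 higher on the log2 scale in fully green leaves, in 8 of 9 pairs (exact sign-flip permutation test, adjusted p = 0.0260). Between always green and fully green leaves the plus ratio was 0.912-fold (exact permutation test, adjusted p = 0.0766) and the minus ratio 1.04-fold (exact permutation test, adjusted p = 0.408), with 30% called. The plus ratio passed without the fully green library MK040 number 2 (log2 difference -0.15, exact permutation test, adjusted p = 0.0490).

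The larger minus share of 21 nt reads reported above is the same fact as a lower minus-strand ratio, not a separate finding. The folds that follow give the size of that gap by group. Within single libraries the ratio was lower on the minus strand in 86 of 87. It was lower by 1.48-fold in fully green leaves (9 of 9 libraries, exact sign-flip permutation test, adjusted p = 0.00837) and by 1.46-fold in green parts (13 of 13, adjusted p = 0.00110). In red parts it was lower by 1.54-fold (12 of 13 libraries, exact sign-flip permutation test, adjusted p = 0.00323), in fully red leaves by 2.31-fold (13 of 13, adjusted p = 0.00110) and in always red plants by 2.98-fold (11 of 11, adjusted p = 0.00266). The gap reached 5.36-fold in dcl1234 (8 of 8 libraries, exact sign-flip permutation test, adjusted p = 0.0130). In ZmUBQ plants it was 1.47-fold in fully green leaves (7 of 7 libraries, exact sign-flip permutation test, adjusted p = 0.0207) and 2.00-fold in fully red leaves (7 of 7, adjusted p = 0.0207). The 4 ZmUBQ always red libraries also had the lower minus ratio, by 1.92-fold, but 4 libraries cannot go below an exact p of 0.125 (adjusted p = 0.136). Of the 10 lengths other than 21 nt, 80% were called in 35S fully green leaves, in green parts and in both fully green and fully red ZmUBQ leaves. In red parts, fully red leaves, always red plants and dcl1234 100% were called, and in ZmUBQ always red plants 0%, also at an unadjusted p of 0.05.

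Always red dcl1234 plants held plus-strand reads of 22 nt at the level of Col-0 libraries and very few minus-strand ones. Their plus strand ran from 31.2 to 43.4 RPM with a median of 36.9 RPM, within the range of always red Col-0 plants. Their minus strand ran from 0.637 to 1.63 RPM with a median of 1.16 RPM, below every Col-0 library, and rests on 9 to 26 reads a library. The plus-strand level was 1.12-fold that of Col-0, with an interval of 0.855 to 1.51 (exact permutation test, adjusted p = 0.515). The minus-strand level was 6.50-fold lower (exact permutation test, adjusted p = 8.67e-05), beside 95.5% of rows called. The pseudocount shrinks that fold: edgeR on the counts, with mapped reads as library sizes, gave a log2 difference of -3.55 (adjusted p = 1.02e-28). The minus strand took 3.01% ± 0.833 (SD, n = 8) of 22 nt reads against 28.1% in Col-0, a difference of -25.1 points with an interval of -27.8 to -22.4 (exact permutation test, adjusted p = 8.86e-05, 81.8% called). The 8 libraries come from 2 events. With 1 mean per event the calls of the minus-strand level (exact permutation test, adjusted p = 0.0871) and the share (exact permutation test, adjusted p = 0.0932) were lost. So were those of both ratios given next (exact permutation tests, adjusted p = 0.111 for each). The differences per event were -2.71 on the log2 scale for the level and -24.6 points for the share. Because 2 events against 6 allow few arrangements, the lowest possible p lies close to the threshold before adjustment. The lost calls therefore say little about whether events differ.

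In dcl1234 the 22 nt length did not stand out from its neighbours on the minus strand. There 22 nt reads were more frequent than both 20 and 23 nt reads in 11 of 11 always red Col-0 libraries but in 0 of 8 dcl1234 libraries. On the plus strand they were so in 11 of 11 and 6 of 8. Reads of 25 to 28 nt averaged 85.3% of the 22 nt level per length on the plus strand and 91.5% on the minus strand, against 49.9% and 2.01% in always red Col-0 plants. Above that level 5.58 RPM ± 2.69 (SD, n = 8) of plus-strand 22 nt reads remained in dcl1234 and 16.9 RPM ± 5.37 (n = 11) in Col-0. So computed, the plus-strand level was 0.360 times that of Col-0 (exact permutation test, adjusted p = 0.000418), with a sign opposite to that of the whole level, and TMM scaling gave -0.44 on the log2 scale (edgeR, adjusted p = 1.46e-08). The subtraction from the level was chosen after seeing the data. The plus ratio to 21 nt was 98.7% ± 7.66 (SD, n = 8), 2.81 times that of Col-0, with an interval of 2.57 to 3.06 (exact permutation test, adjusted p = 9.50e-05, 100% called). The minus ratio was 18.6% ± 5.47 (SD, n = 8), 1.56 times that of Col-0, with an interval of 1.30 to 1.88 (exact permutation test, adjusted p = 0.000253). With the 25 to 28 nt mean subtracted, enough minus-strand reads for a ratio were left in only 1 of 8 libraries, at 10.4%, so no group value or test of it is given. With all other reads of the strand as the denominator the differences changed sign on both strands, to -0.20 on the plus (exact permutation test, adjusted p = 0.00250) and -0.64 on the minus strand (exact permutation test, adjusted p = 0.000176).

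The colour contrast recurred under ZmUBQ. Fully green ZmUBQ leaves held 86.5 to 1377 RPM of plus-strand 22 nt reads with a median of 443 RPM, and 89.6 to 1315 RPM of minus-strand reads with a median of 457 RPM. Fully red ZmUBQ leaves held 12.2 to 27.8 RPM with a median of 16.5 RPM on the plus strand, and 4.99 to 24.1 RPM with a median of 7.55 RPM on the minus strand. All 7 green libraries lay above all 7 red ones on each strand. The difference was 21.3-fold on the plus strand, with an interval of 9.06 to 48.3 (exact permutation test, adjusted p = 0.00173), and 38.8-fold on the minus strand, with an interval of 15.2 to 94.4 (exact permutation test, adjusted p = 0.00173). Here 81.8% of rows were called. The 4 always red ZmUBQ libraries, in the order MK054 numbers 1 and 2 and MK056 numbers 2 and 4, held 7.71, 15.3, 13.7 and 19.2 RPM on the plus strand. On the minus strand they held 2.98, 8.57, 5.31 and 9.33 RPM. They overlapped the fully red leaves, which were 1.29-fold higher on the plus strand, with an interval of 0.828 to 1.98 (exact permutation test, adjusted p = 0.252), and 1.39-fold on the minus strand, with an interval of 0.734 to 2.77 (exact permutation test, adjusted p = 0.344). Between these groups 0% of rows were called, with 0 at an unadjusted p under 0.05 and 0 by edgeR.

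The minus share under ZmUBQ was 49.2% ± 1.55 (SD, n = 7) in fully green and 33.9% ± 8.19 (n = 7) in fully red leaves. The difference was 15.4 points, with an interval of 9.10 to 22.1 (exact permutation test, adjusted p = 0.00160, 90.9% called). Always red ZmUBQ libraries had 27.9%, 35.9%, 27.9% and 32.7%, and fully red leaves differed from them by 2.77 points, with an interval of -7.50 to 12.6 (exact permutation test, adjusted p = 0.618). There 0% of lengths were called, with 0 under an unadjusted p of 0.05.

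Under ZmUBQ the ratio to 21 nt changed with colour on both strands. It rose from 14.1% ± 0.661 to 36.7% ± 13.1 on the plus strand (SD, n = 7 each), so that green leaves had 0.408 times the ratio of red ones (exact permutation test, adjusted p = 0.00212). On the minus strand it rose from 9.55% ± 0.412 to 18.3% ± 7.37, 0.553 times in green leaves, with an interval of 0.407 to 0.735 (exact permutation test, adjusted p = 0.00212), and 100% of the ratios to 21 nt were called. With all other reads of the strand as the denominator these log2 differences were 0.07 on the plus strand, with the opposite sign (exact permutation test, adjusted p = 0.392), and -0.06 on the minus strand (exact permutation test, adjusted p = 0.422). With 1 mean per event all ZmUBQ calls between green and red leaves were lost, since 3 events against 3 cannot go below an exact p of 0.1. Reads of 25 to 28 nt averaged 1.89% of the plus-strand 22 nt level in green and 40.8% in red ZmUBQ leaves, and subtracting them left 0.577 times on the plus strand (exact permutation test, adjusted p = 0.00916) and 0.588 times on the minus strand (exact permutation test, adjusted p = 0.00430). Always red ZmUBQ plants had 37.5% ± 10.5 on the plus and 19.6% ± 6.65 on the minus strand (SD, n = 4). Fully red leaves had 0.945 times that plus ratio, with an interval of 0.554 to 1.57 (exact permutation test, adjusted p = 0.852), and 0.909 times that minus ratio, with an interval of 0.547 to 1.53 (exact permutation test, adjusted p = 0.750). Of these ratios 0% were called, with 0 under an unadjusted p of 0.05.

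Minus-strand 23 nt reads also differed in red ZmUBQ tissue. They amounted to 122% ± 59.5 (SD, n = 7) of the minus-strand 22 nt reads in fully red and 213% ± 91.5 (n = 4) in always red ZmUBQ libraries, but to 11.1% ± 4.55 (n = 7) in fully green ones. In 35S plants the figure was 7.28% ± 0.570 (n = 9) in fully green leaves and 6.59% ± 2.60 (n = 11) in always red plants. The shift was not particular to 23 nt. On the minus strand fully green exceeded fully red ZmUBQ leaves by a log2 difference of 2.15 for 23 nt, 2.67 for 24 nt and 2.66 for 25 nt. At the other lengths the difference ran from 4.45 (26 nt) to 6.37 (21 nt), with 5.74 for 22 nt (edgeR, mapped reads as library sizes). Over all libraries, 23 nt reads outnumbered 22 nt reads on the minus strand in 8 of 87, of which 4 were ZmUBQ fully red, 3 ZmUBQ always red and 1 dcl1234. The 22 nt length stood above both 20 and 23 nt in 84 of 87 libraries on the plus strand and 71 of 87 on the minus strand, and in 2 of 7 fully red and 1 of 4 always red ZmUBQ libraries on the latter.

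Between promoters, ZmUBQ plants had less 22 nt RNA than 35S plants of the same colour. The reads were counted by the authors against a separate transgene sequence for each promoter, and the libraries of the constructs were named differently, so the promoter, the reference and the library series cannot be told apart. In fully green leaves ZmUBQ was 6.78-fold lower on the plus and 7.14-fold lower on the minus strand (exact permutation tests, adjusted p = 0.000699 for each, 100% of rows called). In fully red leaves it was 3.54-fold lower on the plus (exact permutation test, adjusted p = 8.67e-05) and 3.50-fold lower on the minus strand (exact permutation test, adjusted p = 0.00888), with 72.7% of rows called. In always red plants it was 2.36-fold lower on the plus (exact permutation test, adjusted p = 0.00631) and 1.96-fold lower on the minus strand (exact permutation test, adjusted p = 0.0187), again with 72.7% called. The last call was lost without the ZmUBQ library MK054 number 1 (log2 difference -0.70, exact permutation test, adjusted p = 0.0602) or MK056 number 2 (log2 difference -0.92, exact permutation test, adjusted p = 0.0526). With TMM scaling 5 of these 6 calls were lost, with log2 differences (plus, then minus strand) of -0.0064 and -0.093 between fully green groups, of -0.11 and -0.25 between fully red groups, and of -0.24 on the minus strand in always red plants. With 1 mean per event the calls were lost on the minus strand in fully red leaves (exact permutation test, adjusted p = 0.157) and on both strands in always red plants (exact permutation tests, adjusted p = 0.0871 for each). In always red plants this set 2 ZmUBQ events against 6, which allows few arrangements.

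No difference in the minus share of 22 nt reads between promoters passed. ZmUBQ differed from 35S by -1.30 points in fully green leaves, with an interval of -4.50 to 1.83 (exact permutation test, adjusted p = 0.477, 18.2% of lengths called). It differed by -1.05 points in fully red leaves, with an interval of -11.6 to 9.47 (exact permutation test, adjusted p = 0.860, 27.3% called), and by 2.94 points in always red plants, with an interval of -1.60 to 7.52 (exact permutation test, adjusted p = 0.245, 72.7% called).

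The ratio to 21 nt differed between promoters in fully green leaves. It was lower under ZmUBQ on both strands, 0.817 times the 35S value on the plus strand, with an interval of 0.775 to 0.863, and 0.825 times on the minus strand, with an interval of 0.786 to 0.866 (exact permutation tests, adjusted p = 0.000490 for each). All 7 ZmUBQ libraries lay below all 9 35S libraries on each strand, and 50% of the ratios were called. In always red plants the minus ratio was instead higher under ZmUBQ, 1.61 times, with an interval of 1.32 to 1.98 and no overlap (exact permutation test, adjusted p = 0.00239), while the plus ratio was 1.04 times, with an interval of 0.857 to 1.26 (exact permutation test, adjusted p = 0.775, 50% called). With all other minus-strand reads as the denominator that log2 difference was -0.50, of opposite sign (exact permutation test, adjusted p = 0.00250), and on the plus strand it was -0.26 (exact permutation test, adjusted p = 0.00691). In fully red leaves the plus ratio was 1.14 times, with an interval of 0.778 to 1.66 (exact permutation test, adjusted p = 0.602), and the minus ratio 1.32 times, with an interval of 0.962 to 1.81 (exact permutation test, adjusted p = 0.146), with 25% called. Without the 35S library MK044 number 3 the minus ratio passed (log2 difference 0.52, exact permutation test, adjusted p = 0.00743). With 1 mean per event the ratio calls were lost in fully green leaves (exact permutation tests, adjusted p = 0.0709 on each strand) and in always red plants (exact permutation test, adjusted p = 0.111). Here 3 and 2 ZmUBQ events stood against 6 of 35S each, which allows few arrangements.

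Whether the green to red contrast itself differed by promoter was tested over pairs of the same event and number, 9 under 35S and 7 under ZmUBQ. Such pairs did not deviate together: the correlation was above 0.1 in 4 of 9 pairs under 35S and 3 of 7 under ZmUBQ. They serve only as units of this test, and fully red 35S libraries without a fully green partner were left out. No 22 nt measure passed. The contrast was 35.6-fold against 21.3-fold for the plus-strand level (exact permutation test, adjusted p = 0.387) and 59.3-fold against 38.8-fold for the minus-strand level (exact permutation test, adjusted p = 0.598), with 54.5% of rows called. The share contrast was 11.8 against 15.4 points (exact permutation test, adjusted p = 0.942, 9.09% of lengths called). The plus ratio changed 0.650 times against 0.408 times (exact permutation test, unadjusted p = 0.0253, adjusted p = 0.0632) and the minus ratio 0.866 times against 0.553 times (exact permutation test, unadjusted p = 0.0455, adjusted p = 0.0828), with 20% of ratios called. Both passed without the pairs that held a library under 8 M, with a difference of contrasts of 0.80 on the log2 scale on the plus (exact permutation test, adjusted p = 0.0189) and 0.84 on the minus strand (exact permutation test, adjusted p = 0.00233).

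No difference between events of the same group passed. Permuting event labels within the 9 groups that had at least 2 events with several libraries gave 45 tests of the 22 nt measures. Of these 0 passed, though 10 could not: in 35S fully green leaves and ZmUBQ always red plants the events allow too few arrangements for an exact p below 0.1. Arrangements were also few in dcl1234, at 56, and in fully green and fully red ZmUBQ leaves, at 210 each. There the lowest possible p was too high to pass the adjustment alone, so the lack of calls says little about these events. Of all 45, 5 had an unadjusted p under 0.05, and the lowest adjusted p was 0.191. Over all lengths 2.02% of the level tests, 0% of the share tests and 0% of the ratio tests were called. Events took 97.4% of the variance of the minus ratio in ZmUBQ fully red leaves (exact permutation test, unadjusted p = 0.00952, adjusted p = 0.214). There MK054 averaged 11.8%, MK055 15.8% and MK056 28.5%. Events took 90.3% of the variance of the minus share in 35S green parts (exact permutation test, unadjusted p = 0.00873, adjusted p = 0.288). Event MK040 had the lowest share both in fully green leaves, at 46.2%, and in green parts, at 49.3%. Event MK045 was close to it, at 46.4% and 49.6% from 1 library each. In red tissue MK040 was not the lowest. Its share was 52.6% in red parts, where MK043 had 45.2%. In fully red leaves it was 45.3%, where MK041 had 27.4% from 2 libraries. MK044 had 12.5% there, from 1 library with 40 reads of 22 nt.

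Event MK016 was sampled in every Col-0 35S class except always green and shows the spread within 1 event. Its plus-strand 22 nt level in the libraries numbered 3, 4 and 5 was 4121, 3672 and 1771 RPM in fully green leaves and 2327, 2450 and 1081 RPM in green parts. It was 180, 294 and 4049 RPM in red parts and 100.03, 49.98 and 144 RPM in fully red leaves. The always red plants of this event held 45.8 and 56.9 RPM. Number 5 was thus the lowest of the 3 in green tissue and the highest in red tissue, and its fully red library had a minus share of 52.3%, where numbers 3 and 4 had 37.5% and 30.8%. In the fully red libraries 25 to 28 nt reads averaged 40.9%, 47.6% and 13.6% of the plus-strand 22 nt level in the same order.

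The length and strand rows whose level followed the 22 nt rows most closely over all 87 libraries were found by the SD of the log2 difference. For the plus strand they were 20 nt plus at 0.76, 18 nt minus at 0.80 and 20 nt minus at 0.83. For the minus strand they were 21 nt minus at 0.52, 21 nt plus at 0.55 and 20 nt minus at 0.79. These rows share their library and its depth, so the values are a description.

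Ordered by the median plus-strand 22 nt level, the groups ran from 35S fully green leaves, at 3502 RPM, through green parts, ZmUBQ fully green leaves, red parts, 35S fully red leaves, dcl1234 and 35S always red plants to ZmUBQ fully red leaves at 16.5 RPM and ZmUBQ always red plants at 14.5 RPM. The 2 always green libraries both stood above the median of fully green leaves. Among neighbours in that order, fully green leaves and green parts without pairing, dcl1234 and always red Col-0 plants, and ZmUBQ fully red and always red plants did not differ beyond their spread. Not tested among neighbours were green parts against ZmUBQ fully green leaves, those against red parts, 35S fully red leaves against dcl1234, and 35S always red plants against ZmUBQ fully red leaves. In bulk leaf tissue fewer cells that carry these RNAs and fewer of them per cell cannot be told apart.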

How the data were processed

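Size-enriched small RNA of leaves was extracted with TRIzol and made into TruSeq Small RNA libraries, per the labels' protocols. The submitters' processing notes name TAIR10, and the aligner, trimming and handling of reads with several matches are not given in the sources used here. Deposited read counts are the authors' read counts on the whole transgene by length and strand, without normalization. The deposited RPM values are the authors' counts scaled per 1000000 mapped reads of each library, which was checked on all lines (0 deviated beyond a relative tolerance of 1e-06). Rows left out in 4 files were set to 0, and none of them was a 22 nt row.

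Levels were log2(RPM + 1). The minus share needed at least 10 reads of the length in a library. Ratios to 21 nt had 0.5 reads added to each length and needed at least 10 reads of 21 nt on the strand. They are printed as percentages without that addition and compared with it. Groups came from promoter, genotype and colour in the labels. Tests were two-sided permutation tests of group means, enumerated in full (exact) if either group was under 10 libraries. Larger comparisons used 100000 resamples, which give no p below 1e-05. Intervals at 95% hold the shifts not rejected by the same test. Benjamini-Hochberg adjustment ran over all lengths and strands of a measure and 14 comparisons, with 0.05 as threshold. Sign-flip tests compared strands within libraries, and event or promoter labels were permuted for the other tests. The named features are both 22 nt rows, their share and their ratios. The members and lists were chosen with earlier results of these data known.

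A count of 3 reads, the limit that a count of 0 allows, was 0.0955 to 3.32 RPM. Wilson intervals cover counting error only. Among 402 pairs of libraries within groups, counts of 3 pairs agreed within sampling noise, all between different events, and these were kept as separate libraries. Same-numbered libraries of an event were checked for shared deviations. The numbers were taken to pair fully green leaves with green parts, where the correlation was above 0.1 in 9 of 9 pairs and the lowest 0.319. In no other relation were all pairs above 0.1. Red parts and fully red leaves had 10 of 13 pairs above it, with a median of 0.430, and green and red parts had 7 of 13. Alternatives were edgeR quasi-likelihood tests on the counts, other pseudocounts, filters and denominators, ranks, 1 mean per event, pairs, and libraries left out. Tools were Python 3.11.15, numpy 2.4.6, scipy 1.17.1, pandas 2.3.3, R 4.3.3 and edgeR 4.0.16, and the tests were tested on simulated data.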

Additional observations from a re-analysis of the deposited data

How the results depend on the processing

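Of 2046 recomputed values, 1968 kept their direction and their side of the threshold, 42 lost the call, 20 gained it and 16 changed direction. A pseudocount of 0.1 or of 10 RPM, setting values below 1 RPM to 0, no read added, log2 of minus over plus reads, averaging of libraries within noise and edgeR with mapped reads as library sizes changed no call. Differences below are log2 units in the order of the named groups, or percentage points for shares.

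With TMM factors in edgeR, which by construction remove what the 22 rows share, plus-strand levels changed sign between green and red parts (-0.0044), fully red and always red (-0.14), green parts and always red (-0.20), always green and always red (-0.23), and dcl1234 and Col-0 (-0.44). Plus-strand calls were lost for fully green against fully red (0.22), red parts against fully red (0.16) and ZmUBQ against 35S in fully green (-0.0064) and fully red leaves (-0.11). Minus-strand calls were lost for green against red parts (0.077), fully red against always red (0.37) and ZmUBQ against 35S in fully green (-0.093), fully red (-0.25) and always red plants (-0.24).

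With all other reads of the strand as the denominator, plus-strand ratios changed sign for fully green (0.24) and red parts (0.11) against fully red, green parts (0.13) and always green (0.0080) against always red, dcl1234 against Col-0 (-0.20), ZmUBQ fully green against fully red (0.074) and ZmUBQ against 35S always red (-0.26). Minus-strand ratios changed sign for dcl1234 (-0.64) and ZmUBQ against 35S always red (-0.50), and the ZmUBQ colour call was lost (-0.063). With 25 to 28 nt reads subtracted, the minus ratio of dcl1234 could be formed in 1 of 8 libraries only and no longer be tested (-0.15 in that library against the Col-0 mean), the plus ratio of always green against always red lost its call (-0.47) and the minus ratio of ZmUBQ against 35S fully red gained one (0.44). Subtracted from the level, an alternative chosen after seeing the data, it turned the dcl1234 plus-strand difference (-1.47). On ranks, always green against always red lost the plus-ratio call (-6.50 ranks) and the promoter difference of the minus-ratio contrast gained one (6.48 ranks).

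With 1 mean per event fewer values enter, and calls were lost as follows. For always green against always red they were the levels (7.16 plus, 8.33 minus), the share (19.6) and the plus ratio (-1.18). There 1 event stood against 6, which cannot pass, so these losses were fixed by the number of events. For dcl1234, with 2 events against 6 and so few arrangements, they were the minus level (-2.71), the share (-24.6) and the ratios (1.47 plus, 0.61 minus). For ZmUBQ fully green against fully red they were the levels (4.23 plus, 5.04 minus), the share (14.6) and the ratios (-1.26 plus, -0.88 minus). For ZmUBQ against 35S they were the ratios in fully green leaves (-0.30 plus, -0.28 minus), the minus level in fully red leaves (-1.65) and, in always red plants, the levels (-1.28 plus, -0.97 minus) and the minus ratio (0.70). For fully red against always red it was the minus level (1.20).

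Without libraries under 8 M, calls were gained for green against red parts in the share (2.93) and the plus ratio (-0.27), fully red against always red in the share (8.63), the minus ratio of ZmUBQ against 35S fully red (0.52) and the promoter difference of the plus (0.80) and minus ratio contrasts (0.84). Requiring 100 reads gave 8.63 for that share and 0.52 for that minus ratio. Pairing by event and number as a replicate block gained the calls of fully green against green parts (levels 0.71 plus and 0.60 minus, share -2.02, minus ratio 0.050) and changed no other call.

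Leaving out single libraries changed calls in these results. Always green against always red ranged from 6.94 to 7.45 (plus level), 8.08 to 8.57 (minus level), 18.4 to 19.5 (share) and -1.18 to -1.14 (plus ratio). ZmUBQ against 35S ranged from -1.15 to -0.70 (always red, minus level) and 0.25 to 0.52 (fully red, minus ratio). The share of fully red against always red ranged from 5.31 to 8.63, the plus level of fully green against green parts from 0.76 to 1.12, the plus ratio of always green against fully green from -0.15 to -0.12, and that of green against red parts from -0.21 to -0.12. Depth limits minus-strand values in dcl1234, at 9 to 26 reads, and in the fully red library MK044 number 3. The causes of these changes were not tested beyond the construction named.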
